A study of Mus musculus with 6 samples.

Results

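The gamma-crystallin genes of the mouse were followed in prospective lens tissue with and without Pax6. All probes whose platform gene symbol was Cryga, Crygb, Crygc, Crygd, Cryge, Crygf, Crygn or Crygs were taken, including probes seen on only 1 or 2 arrays. This gave 8 probes, 1 for each of the 8 genes, of 46632 probes and 17711 named genes on the array. The tissue came from mouse embryos of embryonic day E10.25 on a mixed FVB and 129 background, which both groups share. In 3 Pax6-/- embryos the surface ectoderm was cut out by laser microdissection, and in 3 wild-type (WT) embryos the lens placode. The prospective lens tissue of both sides of an embryo was combined. All 6 arrays lay on 1 slide, per the file headers. Each embryo's RNA was amplified to cDNA and read on 1 Illumina bead array, so n = 3 arrays per genotype throughout. The labels do not describe the Pax6 allele. The 2 groups also differ in the name of the tissue taken, because a placode was dissected in the WT only.

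The lens placode is the thickened head ectoderm that folds in to form the lens vesicle, and Pax6 is a transcription factor needed for that step. Crystallins are the proteins that fill the elongated fibre cells of the lens and give it its refractive power. The gamma class comprises small monomeric proteins made mainly in fibre cells, and mutations in several of its members cause dominant cataract in mice. In mouse and other vertebrates the transcription factors Maf, Sox1, Sox2 and Prox1 are known to act on gamma-crystallin promoters. The genes Cryga to Crygf lie on chromosome 1, with Cryga to Cryge next to each other and Crygf separated from Cryga by 4 other protein-coding genes. Crygn, a divergent member with gene structure features of the beta-crystallins, lies on chromosome 5, and Crygs, a member made mostly later in lens growth, on chromosome 16.

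The promoters of the 6 chromosome 1 genes are shown because these genes share sequence near their start sites and yet were not measured alike on the arrays. RefSeq promoters of build GRCm38.p6 (250 bases before and 50 after the annotated start) were found for all 8 genes. Each chromosome 1 promoter held the 6-letter run TTTGTG followed by the 6-letter run TATATA on the gene's own strand, printed here in capitals.
Cryge: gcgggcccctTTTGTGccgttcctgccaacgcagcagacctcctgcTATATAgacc
Crygd: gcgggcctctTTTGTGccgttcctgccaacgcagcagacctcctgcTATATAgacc
Crygc: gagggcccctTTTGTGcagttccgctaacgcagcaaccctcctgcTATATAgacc
Crygb: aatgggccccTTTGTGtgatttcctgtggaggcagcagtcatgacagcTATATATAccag
Cryga: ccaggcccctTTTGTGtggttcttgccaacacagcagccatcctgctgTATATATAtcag
Crygf: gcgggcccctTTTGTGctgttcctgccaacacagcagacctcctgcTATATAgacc
These stretches lie at chr1:65051172-65051227 (minus strand) for Cryge, chr1:65063461-65063516 (minus strand) for Crygd, chr1:65073552-65073606 (minus strand) for Crygc, chr1:65082309-65082368 (minus strand) for Crygb, chr1:65103391-65103450 (minus strand) for Cryga and chr1:65926444-65926499 (plus strand) for Crygf. No run longer than 6 letters was common to all 6 promoters. The run CAACAC was also in all of them, at differing places. Counted from the annotated start, TTTGTG begins at -54 in Cryge and -77 in Cryga, and between these in the other 4. The 8-letter run CTTTTGTG, which contains TTTGTG, was present in all of these promoters but that of Crygb. On either strand, 17.7% of 32851 RefSeq mouse promoters of the same length held TTTGTG. The share was 1.37% for the run CTTTTGTG, 5.67% for the run TATATA and 11.2% for the run CAACAC. These runs were picked from the sequences themselves, so these shares are a description.

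The closest pair of promoters was Cryge and Crygf, with 83.1% identical positions in a global alignment, and both are printed whole. Over the 15 pairs of chromosome 1 promoters the identity was 50.9% to 83.1% (median 55.6%), and over the 13 pairs that include Crygn or Crygs it was 43.0% to 48.7%. The capitals mark the half-site TGACCC, its partner half-site GGTCA, the TTTGTG run and each TATATA run, of which the one after TTTGTG is shown above and the other lies before TTTGTG.
Cryge: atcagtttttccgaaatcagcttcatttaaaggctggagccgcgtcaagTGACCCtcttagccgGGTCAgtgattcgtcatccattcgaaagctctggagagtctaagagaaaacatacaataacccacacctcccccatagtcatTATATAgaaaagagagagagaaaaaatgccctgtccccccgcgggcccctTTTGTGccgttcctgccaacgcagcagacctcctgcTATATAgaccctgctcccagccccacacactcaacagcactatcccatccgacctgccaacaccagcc
Crygf: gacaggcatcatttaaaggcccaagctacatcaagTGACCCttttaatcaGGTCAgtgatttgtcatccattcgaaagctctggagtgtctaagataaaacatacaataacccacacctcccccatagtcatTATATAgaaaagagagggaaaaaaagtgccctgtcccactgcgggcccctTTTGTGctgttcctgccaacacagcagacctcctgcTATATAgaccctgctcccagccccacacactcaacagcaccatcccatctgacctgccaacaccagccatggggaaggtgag
The Cryge stretch is chr1:65051114-65051413 (minus strand) and the Crygf stretch chr1:65926272-65926571 (plus strand). A retinoic acid response element built from such everted half-sites has been described in the mouse Crygf promoter. The pair of half-sites in this order with 9 bases between them, searched on both strands, was found in these 2 of the 8 promoters and in 0.0365% of all. The 9 bases include the one just before GGTCA, which is a in Crygf and g in Cryge. The pair was not chosen independently of these promoters, so its share is a description. TGCTGA, the half-site that Maf factors recognise, was found on either strand in Cryga, Crygc, Crygn and Crygs and in 19.5% of all promoters. Among short Sox-type motifs, ACAAAG was found in Cryga and Crygb (18.7% of all promoters) and ATTGTT in Crygd and Crygs (10.7%). In Crygb this match, CTTTGT on the gene's own strand from -69, overlaps the TTTGTG run from -68 and is not a separate stretch. Other Sox-type letter strings were not searched, so a promoter without these motifs may still hold one. A match is a description of letters, and none of these windows was tested for binding. The platform annotation used here pairs each probe with a RefSeq transcript, and whether a probe also binds a closely related family member was not tested.

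On every array the raw signal is the mean intensity of the beads that carry a probe, and a probe counts as above background when its detection p is under 0.05. The 6 arrays had 35.03% to 40.2% of their probes above background, 37.8%, 35.03% and 35.2% on Pax6-/- arrays 1 to 3 and 40.2%, 37.4% and 36.2% on WT arrays 1 to 3. A gamma-crystallin value rested on 15 to 49 beads, with a standard error (SE) over beads between 2.80% and 6.06% of the value, which covers error within an array only. Pax6 itself was above background on all 6 arrays. Its probe with the highest mean read 9.81, 9.95 and 10.1 on the Pax6-/- arrays and 10.5, 10.19 and 10.7 on the WT arrays (normalised log2 intensity). Its 3 probes had log2 changes of -0.52 ± 0.26, -0.99 ± 0.30 and -0.82 ± 0.25 (± SE), without passing (limma adjusted p = 0.646, 0.388 and 0.391). Where these probes lie relative to the altered part of the allele is not given in the labels, so they check nothing about the genotype. All 7 lens placode markers, namely Pax6 itself, Sox2, Six3, Maf, Mab21l1, Pitx3 and Foxe3, were measured. In all 7 every Pax6-/- array lay below every WT array, as in 7.11% of the 17751 probes compared. Maf, Pitx3 and Foxe3 were above background on WT arrays only and entered through them, so the filter partly set their place. Over the 7 genes their mean log2 intensity per array was 6.67 to 6.91 in Pax6-/- and 8.54 to 8.81 in WT.

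Cryge, one of the abundant structural crystallins of fibre cells, gave a strong signal in WT placode and little or none without Pax6. Its raw signals were 63.4, 47.0 and 90.4 on Pax6-/- arrays 1 to 3 and 616, 393 and 818 on WT arrays 1 to 3. The detection p was 0.185, 0.968 and 0.0175 on the Pax6-/- arrays, against 0.000624, 0.000624 and 0 on the WT arrays. All WT arrays were thus above background and well above all Pax6-/- arrays, of which only array 3 was above background. After normalisation Cryge stood at 5.21 ± 0.55 in Pax6-/- and 8.90 ± 0.86 in WT (log2 intensity, SD, n = 3 each). The log2 change was -3.69 ± 0.53 (SE), with a 95% interval of -4.98 to -2.40, which is 12.9-fold lower on this scale. That value is partly set by background on the Pax6-/- side, because 2 of the 3 arrays there read no more than background. The unadjusted limma p was 0.000419, the 68th smallest of 17751 probes, and the change was the 8th most negative. It did not pass after Benjamini-Hochberg adjustment over all probes (limma adjusted p = 0.108). In a whole tissue sample, fewer cells that make a transcript and less transcript per cell cannot be told apart.

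Crygc, another structural crystallin of the chromosome 1 cluster, was above background in every WT placode and in no Pax6-/- sample. The raw signals were 57.9, 61.8 and 61.4 on Pax6-/- arrays 1 to 3 (detection p 0.444, 0.189 and 0.118) and 148, 244 and 137 on WT arrays 1 to 3 (detection p 0.00499, 0.0025 and 0.00437). The genotypes did not overlap, and even the dimmest WT array was well above the brightest Pax6-/- array. Normalised levels were 5.00 ± 0.08 in Pax6-/- and 6.82 ± 0.67 in WT (log2 intensity, SD, n = 3 each). As no Pax6-/- array detected Crygc, only a bound holds for its fold: on this scale the mean was at least 3.00-fold lower there. The bound leaves out the spread between embryos, which the fitted interval below covers. For this bound, each Pax6-/- array counts with its dimmest detected probe, or with Crygc's own reading where that is larger. The fitted log2 change was -1.81 ± 0.38 (SE; 95% interval -2.74 to -0.88), with an unadjusted limma p of 0.00315 and an adjusted p of 0.211, so it did not pass.

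Crygn, the divergent member outside the cluster, varied more between embryos than between genotypes. Its raw signals were 79.6, 360 and 48.2 on Pax6-/- arrays 1 to 3 and 118, 235.5 and 298 on WT arrays 1 to 3. Pax6-/- arrays 1 and 2 were above background (detection p 0.0293 and 0.000624) and array 3 was not (0.772), while all WT arrays were (0.00811, 0.0025 and 0.000624). The highest of all 6 signals was on a Pax6-/- array and so was the lowest, and the genotypes overlapped. Normalised levels were 6.19 ± 1.92 in Pax6-/- and 7.14 ± 1.34 in WT (log2 intensity, SD, n = 3 each). The log2 change was -0.96 ± 1.13 (SE), with a 95% interval of -3.71 to 1.80 and a limma adjusted p of 0.849. The interval holds both 0 and values on either side of it. The value depended on single arrays: it was -2.09 without Pax6-/- array 2, -1.59 without WT array 1, -0.53 without Pax6-/- array 1, -0.34 without WT array 3 and -0.31 without Pax6-/- array 3, none with an adjusted p under 0.05.

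Crygb, Cryga and Crygd, further structural crystallins of the cluster, were each above background on a single WT array and on no Pax6-/- array, and each on a different WT embryo. Crygb had raw signals of 71.7, 53.8 and 51.9 on Pax6-/- arrays 1 to 3 and 460, 50.8 and 43.7 on WT arrays 1 to 3. Only WT array 1 stood out, with 15 beads, a bead SE of 4.30% and a detection p of 0.000624, and the other WT arrays read below all Pax6-/- arrays. Cryga read 57.7, 53.5 and 55.1 on the Pax6-/- arrays and 49.9, 223 and 48.2 on the WT arrays. Here WT array 2 was the high one, with 29 beads, a bead SE of 3.15% and a detection p of 0.0025, and again both other WT arrays were below all Pax6-/- arrays. Crygd read 57.9, 52.2 and 50.4 on the Pax6-/- arrays and 72.5, 50.3 and 105 on the WT arrays. WT array 3 was above background (33 beads, bead SE 3.49%, detection p 0.00561), and WT array 1 missed it at 0.0624. The bead SE of these values covers error within an array only, and differences between embryos in dissection or amplification were not tested. With 1 of 3 WT arrays above background, the 3 genes stayed out of the fit. Without a filter on dim probes their log2 changes were -0.95 ± 1.02 (Crygb), -0.72 ± 0.72 (Cryga) and -0.54 ± 0.45 (Crygd; ± SE), each with a limma adjusted p of 0.873.

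Crygf and Crygs were not above background on any of the 6 arrays. Crygf, the structural crystallin whose promoter is the closest to that of Cryge, read 45.2, 44.3 and 43.4 on the Pax6-/- arrays and 50.5, 50.4 and 48.8 on the WT arrays, with detection p of 0.617 to 0.994. Crygs read 55.2, 47.1 and 49.0 on the Pax6-/- arrays and 70.7, 67.2 and 39.9 on the WT arrays, with detection p of 0.0717 to 0.98. For Crygf every WT array read above every Pax6-/- array, by a few units, but with both genotypes not above background no fold is given for either gene.

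Counted over the family, each WT array had 4 of the 8 genes above background and each Pax6-/- array 1. Every WT array held Cryge, Crygc and Crygn and 1 further gene, which was Crygb on array 1, Cryga on array 2 and Crygd on array 3. The single gene was Crygn on Pax6-/- arrays 1 and 2 and Cryge on Pax6-/- array 3. On each WT array 3 of the 6 chromosome 1 genes were above background, against 0, 0 and 1 on the Pax6-/- arrays. In all, 6 of the 8 genes were above background on more WT than Pax6-/- arrays and none on fewer, where 15.1% of all probes lay on the WT side and 11.2% on the Pax6-/- side. Crygc was the 1 member seen on all 3 WT arrays and no Pax6-/- array, a pattern of 0.562% of all probes. The pattern of Cryga, Crygb and Crygd, exactly 1 WT array and no Pax6-/- array, was that of 6.07% of all probes, and 4.81% had 1 Pax6-/- array and no WT array. A raw signal of 200 or more on that single WT array, as for Crygb and Cryga, was rarer, at 0.583% of all probes, with 0.320% for a single Pax6-/- array. No array was above background for 44.6% of all probes, as for Crygf and Crygs.

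**Figure D1:**
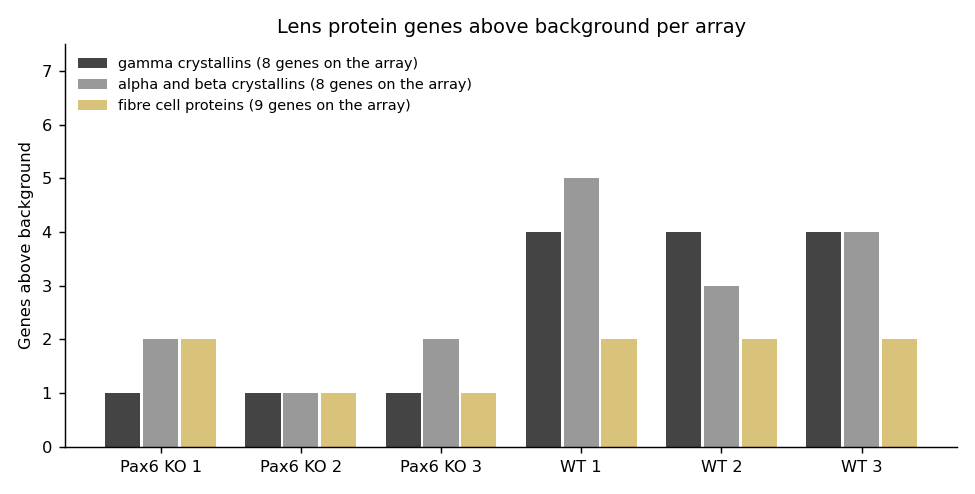
Number of genes above background on each array for 3 groups of lens protein genes, Pax6-/- arrays left of WT arrays; a gene counts if any of its probes has a detection p under 0.05. The gamma-crystallins stand at 1 on each Pax6-/- array and at 4 on each WT array.

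Only 3 of the 8 genes, Cryge, Crygc and Crygn, entered the comparison across the whole table, which took probes above background on at least 3 of the 6 arrays. The other 5 did not reach that number of arrays. None of the 3 passed an adjusted p of 0.05 in limma, where 0.0620% of 17751 probes passed (0.0507% lower and 0.0113% higher). The 11 probes that passed were 9 lower and 2 higher in Pax6-/- (8 and 0 after scaling to a common median, 4 and 0 with cyclic loess, 12 and 6 from the authors' processed values). At an unadjusted limma p of 0.05 it was 2 of the 3, Cryge and Crygc, both lower, against 8.96% of all probes, 5.04% lower and 3.92% higher. The same 2 had all Pax6-/- arrays below all WT arrays, as did 7.11% of all probes. Crygc entered the fit only through its WT arrays, and Cryge, above background on 1 Pax6-/- array, also needed them. The place of both among the lower probes was thus partly set by the filter. An exact two-sided permutation test of the 6 values gave p = 0.1 for Cryge and for Crygc, the smallest that 3 against 3 arrays allow, and p = 0.5 for Crygn. The median log2 change of the 3 was -1.81 and that of all 17751 probes 0.05, of which 8127 had negative and 9624 positive changes.

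The alpha- and beta-crystallins, the other structural and chaperone crystallins of the lens, were likewise measured only in part. Of 8 genes on the array, 3 entered the fit, all with negative changes (median -2.14), as had 8127 of all 17751 probes. Crybb3, a beta-crystallin, passed as lower, as did 0.0507% of all probes. Crybb3 and Cryba1 were each above background on 1 Pax6-/- array and needed WT arrays to enter, so the filter partly set their sign. Crybb3 stood at 5.10 ± 0.11 in Pax6-/- and 9.52 ± 0.47 in WT (log2 intensity, SD, n = 3 each; log2 change -4.41 ± 0.31, limma adjusted p = 0.0332). The probes of Crybb3 disagreed: the second one stood at 5.503 in Pax6-/- and 5.85 in WT and did not pass (log2 change -0.35 ± 0.76, limma adjusted p = 0.912). The probe that passed was above background on 1 Pax6-/- array, so background partly sets its change. When any single array was left out, 0 genes of this list passed, and 0 to 1 probes over the whole table. Cryab, a small heat shock protein, and Cryba1 did not pass, at -1.94 ± 0.88 and -2.14 ± 1.22 (SE). Cryba1 also differed from embryo to embryo within the WT, with raw signals of 116, 46.6 and 61.2 on the Pax6-/- arrays and 479, 872 and 45.3 on the WT arrays. Single-array signals were found here too: Crybb1 was above background on WT array 1 only and Crybb2 on WT array 3 only.

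Of 11 genes of other fibre cell proteins, 9 were on the array, 6 of these were not above background on any array and 2 entered the fit. The remaining one, Birc7, an apoptosis inhibitor gene, was above background on Pax6-/- array 3 only, with raw signals of 63.0, 49.99 and 93.2 in Pax6-/- and 49.4, 56.5 and 52.8 in WT. Mip, an aquaporin abundant in fibre membranes, had a log2 change of -2.90 ± 0.73 (limma adjusted p = 0.291), and its raw signals were 145, 133 and 58.6 in Pax6-/- and 378, 1147 and 587 in WT. Bfsp2, a beaded filament protein, had -0.46 ± 0.28 (limma adjusted p = 0.729). Neither passed.

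**Figure D2:**
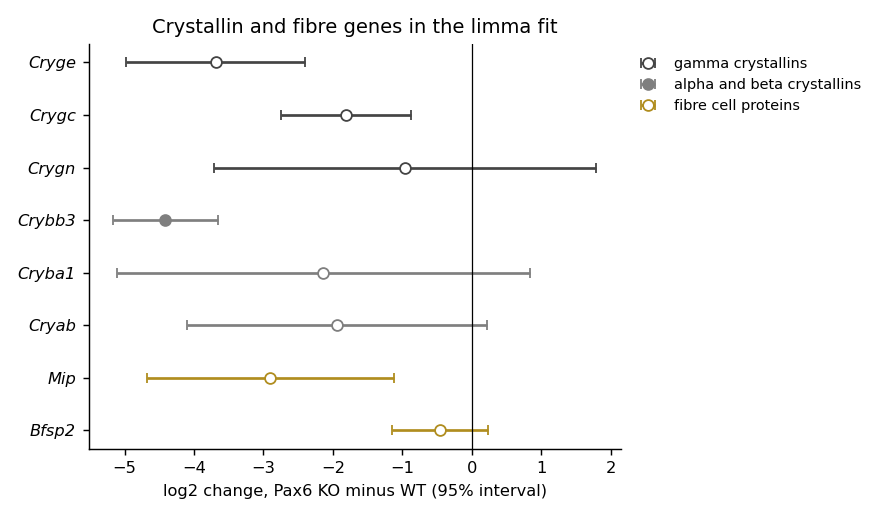
Log2 change, Pax6-/- minus WT, with its 95% interval from limma for the crystallin and fibre genes that entered the fit; the filled point (Crybb3) passed an adjusted p of 0.05. All 8 estimates are negative, as were 8127 of all 17751, and the intervals of Crygn, Cryba1, Cryab and Bfsp2 include 0. Cryge, Crygc, Crybb3, Cryba1 and Bfsp2 were above background on at most 1 Pax6-/- array, so the filter partly set their sign.

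Of 16 genes of factors known to act on gamma-crystallin promoters, 13 were on the array and 9 entered the fit. Of the 9, 8 had negative changes and 1 a positive one, where 8127 of all 17751 probes had negative changes. The 8 include Hsf2, a heat shock factor gene, near 0 at -0.03 ± 0.34 (SE). Maf, Pitx3 and Foxe3 entered the fit through WT arrays only, so the filter partly set their sign. The 9 include Pax6 itself, Maf, Sox2, Six3, Pitx3 and Foxe3, which are also among the lens placode markers above. For these genes the same probes are counted in both lists. Maf and Prox1 passed as lower and none as higher, where 0.0507% of all probes passed as lower and 0.0113% as higher. Maf, a bZIP factor that activates crystallin genes, went undetected on the Pax6-/- arrays and stood at 10.7 ± 0.12 in WT. By the bound used for Crygc, its mean was at least 44.1-fold lower, spread between embryos left out (limma adjusted p = 0.00341 for the fitted change). Prox1, a homeodomain protein needed for fibre elongation, stood at 5.16 ± 0.23 in Pax6-/- and 10.7 ± 0.50 in WT (log2 change -5.52 ± 0.33, limma adjusted p = 0.0272). It was above background on 1 Pax6-/- array, so background partly sets this value. The calls of Maf and Prox1 were lost when any single array was left out (0 list genes passed in each of these 6 fits). Over the whole table only 0 to 1 probes passed in these fits, so the loss was not particular to Maf and Prox1. Sox2, an HMG-box factor of the early lens, had -2.13 ± 0.40 without passing (limma adjusted p = 0.173), and its dimmer probe had -0.40 ± 0.56. The retinoic acid receptor gene Rarb had 1.18 ± 0.76 and did not pass (limma adjusted p = 0.733). The median log2 change of the 9 was -1.23. Whether any of these factors bears on the gamma-crystallin values was not tested.

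Marker lists of tissues that border the ectoderm, and of the ectoderm itself, had these values on the same arrays. The 6 measured red blood cell genes all had positive changes (median 1.88), as had 9624 of all 17751 probes. These genes averaged 8.61 to 8.87 per array in Pax6-/- and 5.93 to 7.82 in WT (log2 intensity), with Gata1 and Epor detected nowhere. Slc4a1, the red cell anion exchanger, stood at 8.13 ± 0.34 in Pax6-/- and 5.39 ± 0.82 in WT (SD, n = 3 each). The 7 measured optic cup and neuroectoderm genes averaged 6.71 to 7.22 in Pax6-/- and 5.90 to 6.10 in WT, with Hes5, Zic2, Pou3f2, Fabp7 and Tyr detected nowhere. Of the 7, 5 had positive and 2 negative changes: Rax, a retinal homeobox gene, stood at 6.93 ± 0.95 in Pax6-/- and 5.03 ± 0.21 in WT, and Nes, an intermediate filament gene of neural progenitors, at 5.24 ± 0.35 in Pax6-/- and 5.598 ± 0.69 in WT. The 12 measured surface ectoderm genes averaged 8.33 to 9.05 in Pax6-/- and 7.88 to 8.18 in WT, 7 with positive and 5 with negative changes. Among them the desmosome gene Pkp3 stood at 9.38 ± 0.30 in Pax6-/- and 7.20 ± 0.28 in WT, and the epithelial adhesion gene Epcam at 8.96 ± 0.09 in Pax6-/- and 9.76 ± 0.14 in WT. Krt14 was detected nowhere. The 6 measured endothelial genes averaged 6.75 to 6.91 in Pax6-/- and 5.95 to 6.31 in WT, with Tie1 detected nowhere. The 9 measured mesenchyme genes averaged 7.29 to 8.13 in Pax6-/- and 6.96 to 7.59 in WT, with Foxc1, Sox10 and Snai1 detected nowhere. Within that list Twist2 stood at 6.74 ± 0.43 in Pax6-/- and was not above background on any WT array, while Pdgfra stood at 6.59 ± 1.43 in Pax6-/- and 10.4 ± 0.20 in WT, with a second, dimmer probe at 5.33 in Pax6-/- and 5.22 in WT. The 2 measured macrophage genes averaged 5.28 to 6.94 in Pax6-/- and 5.58 to 7.38 in WT. In limma 0 genes of these 6 lists passed over all probes. At an unadjusted p of 0.05, 4 red blood cell, 3 optic cup, 3 surface ectoderm, 3 mesenchyme and 1 endothelial genes were higher, and 1 gene each of the surface ectoderm, mesenchyme and endothelial lists was lower, where 3.92% of all probes were higher and 5.04% lower. Of those higher, Twist2 and the surface ectoderm gene Grhl3 were above background on Pax6-/- arrays only, and Slc4a1 and Rax on 1 WT array each besides. The filter thus partly set the place of these genes. The part of these tissues in the gamma-crystallin values was not tested.

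The genes beside the gamma-crystallin cluster on chromosome 1 were described in the same way. The 5 nearest protein-coding genes on each side and the 4 between Cryga and Crygf were taken after the crystallin values were known. Of these 14, 13 were on the array and 9 entered the fit. None passed, and 0 of 9 had an unadjusted limma p under 0.05, a count near the 8.96% of all probes. These counts take the probe with the highest mean of each gene, and the probes of Idh1 disagreed. Their log2 changes ran from -0.24 to 0.80 (median 0.21). The metabolic enzyme gene Idh1, which lies between Cryga and Crygf, stood at 9.58 in Pax6-/- and 9.82 in WT by that probe. By its second probe it stood at 7.44 in Pax6-/- and 10.02 in WT (log2 change -2.59 ± 0.81, limma adjusted p = 0.402), and that probe was under the unadjusted limit of 0.05. The lipid kinase gene Pikfyve stood at 7.32 in Pax6-/- and 6.97 in WT (log2 intensity). Fzd5, a Wnt receptor gene on the Cryge side, stood at 8.16 in Pax6-/- and 8.40 in WT.

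Named genes whose values over the 6 arrays ran most like those of Cryge were Asph, Elovl3, Alg6, Zfp593 and Tgm2. The likeness was the root-mean-square difference of mean-centred log2 values, which was 0.380 for Asph, 0.401 for Elovl3, 0.623 for Alg6, 0.671 for Zfp593 and 0.702 for Tgm2, against a median of 2.01 over 13138 named probes. Asph, an aspartate hydroxylase gene, stood at 5.11 ± 0.11 in Pax6-/- and 8.64 ± 0.44 in WT (log2 intensity, SD, n = 3 each). Elovl3, a fatty acid elongase gene, stood at 4.91 ± 0.06 in Pax6-/- and 8.11 ± 0.63 in WT. Both were above background on all WT arrays and no Pax6-/- array, and in both, as in Cryge, WT array 3 was the highest. Other probes of the same genes ran differently: those of Asph had log2 changes of -1.55 to 0.26, that of Zfp593 -0.90 and that of Alg6 0.74, against -3.52, -3.60 and -2.84 for the probes picked. Since the genes were picked for this likeness among 6 arrays, it is a description of these libraries.

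**Figure D3:**
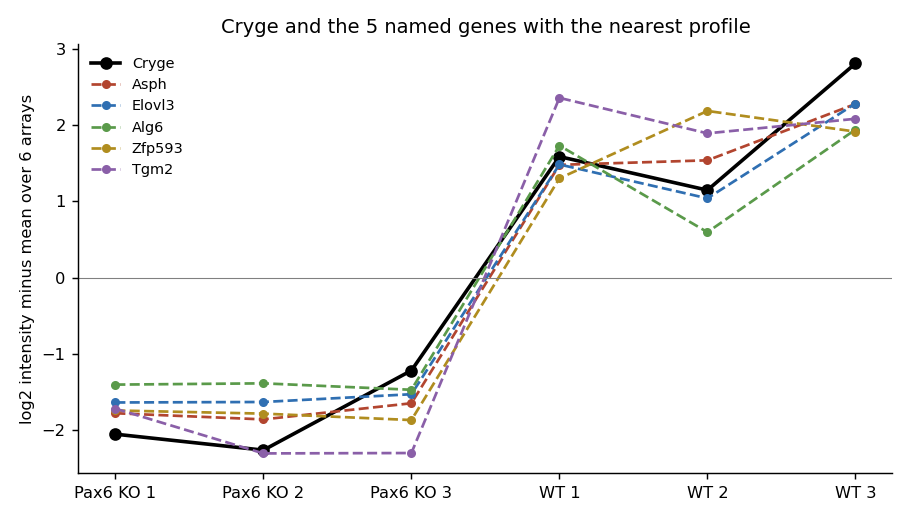
Normalised log2 intensity minus each gene's mean over the 6 arrays, for Cryge (black) and the 5 named genes with the nearest profile, Pax6-/- arrays left of WT arrays; lines only link points of a gene. All 6 genes lie below 0 on the Pax6-/- arrays and above 0 on the WT arrays.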

How the data were processed

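The deposited table that was not normalised gives for every probe, per the file headers, an average bead intensity (linear scale), the standard error over beads, the count of beads and a detection p-value. GenomeStudio is named in the submitters' processing notes; its version and settings are not given in the sources used here. The table of the authors' processed intensity values (linear, minimum -19.8 to -16.5) ranks probes as the raw table does and served as an alternative, floored at 16 before log2; its normalisation is not stated. Groups and replicate numbers came from the titles, and each array is 1 embryo per the series' design text.

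Probes were named by the platform annotation (29976 with 1 symbol, 10 with several, 16646 with none), and symbols were checked by gene identifier against RefSeq (29921 matched, 8 of 8 gamma-crystallin probes). Intensities went through neqc of limma 3.58.1 in R 4.3.3 (normexp with background inferred from detection p, offset 16, quantile, log2), which shrinks the changes of dim probes. Probes above background on at least 3 of 6 arrays (17751) were fitted per probe with lmFit and eBayes, Pax6-/- minus WT, with Benjamini-Hochberg adjustment over all of them. The script was tested on simulated data. Array correlations were 0.787 to 0.811 within Pax6-/-, 0.763 to 0.817 within WT and 0.719 to 0.815 between them.

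Genes of other lists are given by their kept probe with the highest mean. All 8 gamma-crystallin genes are named. From other lists, genes that passed are named or, where fewer than 3 passed, some of those with the 3 smallest p-values. A few more were chosen after their values were seen (Rarb, Hsf2, Crybb1, Crybb2, Birc7, Nes, Epcam, Pitx3, Foxe3 and the cluster neighbours). Adjusted p-values rest on 3 embryos per genotype. The members and lists were chosen with earlier results of these data known. Promoters came from RefSeq, GRCm38.p6; the array files name no build.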

Additional observations from a re-analysis of the deposited data

How the results depend on the processing

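No gamma-crystallin gene passed an adjusted p of 0.05 under any of the 16 alternatives run, and no direction changed. The log2 change of Cryge stayed between -4.20 and -2.84 (limma adjusted p 0.078 to 0.419 over 16 alternatives), that of Crygc between -2.71 and -1.17 (0.0915 to 0.454 over 13) and that of Crygn between -2.09 and -0.31 (0.584 to 0.971 over 16). The bounds of Cryge and Crygc came from the authors' processed values and from a normexp offset of 50. Leaving out any WT array takes Crygc below the filter, so it has no value there. With arrays scaled to a common median the median change of all probes was -0.24, against 0.05 with quantile normalisation, and Cryge and Crygc stood at -4.00 and -2.01.

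The count of probes that passed over the whole table, 11, was less stable: 18 with the authors' processed values, 31 where all 3 arrays of a genotype had to be above background, 4 with cyclic loess, 3 with an offset of 50, 3 with an intensity trend and robust prior, 2 without background correction and 0 to 1 without a single array (0 without any one Pax6-/- array or WT array 1 or 2, 1 without WT array 3). Of the other lists 3 genes passed (Crybb3, Maf and Prox1), and 0 did when any single array was left out. With the replicate number as a block, 0 probes and 0 list genes passed, and Cryge stood at -3.69 with an adjusted p of 0.419. Deviations of same-numbered arrays correlated at 0.00015, -0.00228 and -0.00952, and no array correlated best with its own number. Such values cannot show whether same-numbered embryos were paired. The gamma-crystallin genes above background averaged 0.333 per Pax6-/- array at a detection p under 0.01 and 1.33 at 0.10; on WT arrays the averages were 4 and 4.67. The number of arrays limits the precision, and signals near 50 lie in the background.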
